A study of Caenorhabditis elegans with 2 samples.

Results

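The cuticle collagen genes of Caenorhabditis elegans were examined in chromatin immunoprecipitation sequencing (ChIP-seq) of NHR-237, a nuclear hormone receptor, in whole L4 larvae. Genes were chosen by name: the 156 protein-coding genes whose symbol begins with col-, plus 11 collagen genes known from their mutant shapes. These 11 are rol-6, sqt-1, sqt-3, bli-1, bli-2, dpy-2, dpy-7, dpy-8, dpy-10, dpy-13 and dpy-17, and all 11 were found. The set holds 167 of the 19985 protein-coding genes of the Ensembl release 115 annotation of WBcel235. The worms were of strain OP228, which carries the unc-119(ed3) mutation and the integrated transgene wgIs228. In this strain NHR-237 is made with GFP and FLAG joined to its C terminus, and both samples share every allele. The sex is recorded as males and females pooled. The single group had 2 biological replicates and no second condition, so the collagen genes are set beside all protein-coding genes of the same libraries. Whole worms were used, so the tissue in which NHR-237 sat at a region cannot be told.

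Cuticle collagens are small secreted proteins of the epidermis that form triple helices from repeats of glycine and any pair of other residues (Gly-X-Y). They are cross-linked into the exoskeleton, which is built anew at each molt, and many of their genes are transcribed in pulses timed to the molts. At the L4 stage the epidermis prepares the adult cuticle, with its ridges, furrows and struts. Nuclear hormone receptors are transcription factors, many of them controlled by small fat-soluble ligands, and the family is much expanded in nematodes, and NHR-23 and NHR-25 of this family are known regulators of molting.

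The authors deposited regions with a signal value, which is used here only to rank regions within a list, with 1 the strongest. Each replicate has a list of 30000 regions, background included, and a pooled list made from the 2 replicates has 26787. The 237 regions that passed the irreproducible discovery rate procedure (IDR peaks) were the 237 strongest pooled regions, so both measures carry the same ranking. The weakest IDR peak had a signal of 31, and the pooled median was 9.42. The median −log10 q was 2.07 among the IDR peaks, against 0.0875 in the pooled list. No list gives read counts, so depth is unknown, and control tracks were not analysed here.

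No IDR peak lay at the start of a cuticle collagen gene. Within 1000 bp of a 5′ end, 0 of the 167 collagen genes had an IDR peak, against 188 of all 19985 genes (0.941%). Within 500 bp it was 0, against 137 of all (0.686%), and in the own promoter window, from 1000 bp upstream to 200 bp downstream, 0 against 174 (0.871%). The IDR peaks near these genes lay farther off, and mostly just past the 3′ end. Within 2000 bp of a 5′ end, 6 collagen genes (3.59%) had an IDR peak, against 284 of all genes (1.42%). They were col-42, col-117, col-3, col-94, col-146 and col-147, and they shared 5 peaks. In 5 of these genes (2.99%) a peak lay 1001 to 2000 bp downstream, against 62 of all genes (0.31%). A peak lay as far upstream of 3 (1.8%), against 68 (0.34%), and col-3 and col-117 counted on both sides. Of these 5 peaks, 4 had their summit between 150 and 359 bp past the 3′ end of a collagen gene, and the other was counted for col-94.

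Summit windows of 3 of these peaks, and of other regions that the results turn on, are shown so that the place of each signal can be read. They were read from the RefSeq WBcel235 genome (ce11) in the direction of the collagen gene, and were ended where an annotated untranslated region (UTR) begins. The windows are chrV:18639850-18640050 past col-42, chrIV:8826079-8826279 past col-3 and chrV:9631767-9631967 past col-147. The others are chrX:10078808-10079008 past col-176, chrV:13200822-13200981 past col-160 and chrIV:4236924-4237124 past dpy-13. The last, chrII:5652435-5652595, is the promoter window of bli-2. The col-147, col-160 and bli-2 windows are on the minus strand. Capitals mark AGGTCA, a core sequence that many nuclear receptors bind, its variant AAGTCA, and TATAAA, the core of the TATA box. Matches on either strand are marked, so TGACCT is AGGTCA read on the other strand. The windows read for col-151 and dpy-7 held none of these sequences and are not printed. AGGTCA was in 5 of the 10 strong regions at collagen 3′ ends, so the printed windows show it more often than that.
col-42: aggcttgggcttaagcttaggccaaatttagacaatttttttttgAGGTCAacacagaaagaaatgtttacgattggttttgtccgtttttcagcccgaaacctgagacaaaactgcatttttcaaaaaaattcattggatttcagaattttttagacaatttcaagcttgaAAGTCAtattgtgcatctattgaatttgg
col-3: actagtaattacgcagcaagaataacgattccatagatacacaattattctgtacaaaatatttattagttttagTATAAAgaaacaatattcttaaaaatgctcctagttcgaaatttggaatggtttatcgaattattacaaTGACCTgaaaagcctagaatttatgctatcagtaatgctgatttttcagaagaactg
col-147: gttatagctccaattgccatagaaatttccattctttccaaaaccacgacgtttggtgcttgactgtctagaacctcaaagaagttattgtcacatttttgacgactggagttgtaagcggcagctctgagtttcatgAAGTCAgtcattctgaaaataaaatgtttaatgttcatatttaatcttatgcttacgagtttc
col-176: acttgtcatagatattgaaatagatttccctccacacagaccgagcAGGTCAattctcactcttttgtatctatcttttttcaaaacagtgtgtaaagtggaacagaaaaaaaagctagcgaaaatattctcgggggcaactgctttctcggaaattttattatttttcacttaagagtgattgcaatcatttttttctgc
col-160: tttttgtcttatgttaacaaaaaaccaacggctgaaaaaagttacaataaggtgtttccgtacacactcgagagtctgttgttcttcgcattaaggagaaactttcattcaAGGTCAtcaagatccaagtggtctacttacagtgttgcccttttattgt
dpy-13: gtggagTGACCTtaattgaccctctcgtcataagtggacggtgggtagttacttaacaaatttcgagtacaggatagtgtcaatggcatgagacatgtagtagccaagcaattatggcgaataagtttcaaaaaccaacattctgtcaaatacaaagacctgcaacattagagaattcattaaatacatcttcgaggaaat
bli-2: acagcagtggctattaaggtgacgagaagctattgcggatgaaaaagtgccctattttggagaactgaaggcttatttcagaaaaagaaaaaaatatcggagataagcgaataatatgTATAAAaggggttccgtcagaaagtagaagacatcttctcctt

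The strongest region near any cuticle collagen gene lay beyond col-42 (WBGene00013489, V:18638484-18639591, plus strand). It ranked 103 in the pooled list with a signal of 44.6, and its summit was 1466 bp from the 5′ end and 359 bp past the 3′ end. The summit also lay 354 bp upstream of egas-1, the protein-coding gene with the nearest 5′ end, and thus in its promoter window. In replicate 1 the best region of col-42 ranked 58 with a signal of 44.1, and in replicate 2 it ranked 3025 with a signal of 7.49. The replicate 1 summit was 1 bp from the pooled summit. The strongest overlapping region of replicate 2 shared 83 bp with the peak, and its summit was 277 bp away. This IDR peak was therefore strong in replicate 1 and far weaker in replicate 2.

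col-3 and col-117 encode proteins of 299 residues that were 100% identical, in coding DNA as well, and lie head to head on chromosome IV. An IDR peak stood past the 3′ end of each. Past col-117 (WBGene00000691, IV:8822962-8824195, minus strand) the pooled region ranked 142 with a signal of 38.3, and its summit was 150 bp past the 3′ end, in the 3′ UTR of the neighbouring gene T28C6.5. Past col-3 (WBGene00000594, IV:8824783-8826013, plus strand) the region ranked 226 with a signal of 31.7, 166 bp past the 3′ end and between genes.

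Both replicates had strong regions at these ends. At the 3′ end of col-117 the best rank was 341 in replicate 1 and 63 in replicate 2. At the 3′ end of col-3 it was 186 in replicate 1 and 233 in replicate 2. Reads from identical coding sequences cannot be told apart, and the part of such reads was not tested. The best local alignment of the 500 bp past both 3′ ends covered 14 bp, at 92.9% identity. By the 2000 bp rule, the region past col-117 also counted for col-3, from which it was 1971 bp upstream.

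The peak counted for col-146 and col-147 lay between these genes, 162 bp past the 3′ end of col-147 (WBGene00000720, V:9632029-9633338, minus strand). The summit fell in a coding exon of T06E4.5, 1471 bp from the 5′ end of col-147 and 1924 bp from that of col-146. The region ranked 156 in the pooled list (signal 36.9), 188 in replicate 1 (25) and 272 in replicate 2 (13.4). The replicate 1 summit was 10 bp from the pooled summit, and that of replicate 2 was 212 bp away.

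The peak counted for col-94 (WBGene00000669, III:10986808-10987873, minus strand) was not at a 3′ end of a collagen gene. The region ranked 152 in the pooled list (signal 37.0), 170 in replicate 1 (25.8) and 102 in replicate 2 (18.4), so it was strong in both. col-92, whose protein was 99.7% identical to that of col-94, had its best pooled region at rank 5253 only.

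Weaker regions at 3′ ends followed these peaks in the list. The col-176 region (pooled rank 258, signal 29.7, just below the weakest IDR peak) lay 180 bp past the 3′ end of its gene, WBGene00000749, between genes. Within 500 bp of that end, its best rank was 109 in replicate 1. The best there in replicate 2, rank 2164, lay elsewhere, at -229 bp within the gene. The replicate 2 region that overlapped the pooled one ranked 5744, with its summit 204 bp away. col-176 also had a strong region at its start, with pooled rank 499 (signal 23.5) and its summit 170 bp from the 5′ end. There its best replicate 2 region ranked 129 (16.8), 112 bp from the 5′ end. A region at rank 290 (signal 28.2) lay 60 bp past the 3′ end of col-160 (WBGene00000733), in an intron of the overlapping gene col-159, and was counted for both genes. Its ranks were 373 in replicate 1 and 273 in replicate 2.

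A region at rank 393 (signal 25.4) was shared by the neighbours col-95 and col-96, and its summit was in the 3′ UTR of col-96. It ranked 391 in replicate 1 and 3165 in replicate 2. The col-131 region (rank 473, signal 24.1) lay in that gene's 3′ UTR, with a best rank of 238 in replicate 1, and replicate 2 had no region within 500 bp of this 3′ end. The col-151 region (rank 608, signal 22.2) lay in a coding exon, 30 bp before the annotated end, and ranked 675 in replicate 1. Replicate 2 had no region within 2000 bp of the 5′ end of col-151. The regions of col-95 and col-96, col-131 and col-151 were thus carried mainly by replicate 1.

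Whether the share of collagen genes near strong regions was above or below that of all genes turned with the distance allowed, and no test was made. Within 2000 bp of a 5′ end, 128 of 167 collagen genes (76.6%) had a pooled region, against 13477 of 19985 genes (67.4%). Among the 100 strongest pooled regions the counts were 0 collagen genes and 113 genes of all (0.565%). Among the 500 strongest they were 12 collagen genes (7.19%) and 575 genes (2.88%). Among the 1000 strongest they were 16 collagen genes (9.58%) and 1080 genes (5.4%). Within 1000 bp of a 5′ end the pooled counts were 92 collagen genes (55.1%) and 9692 genes (48.5%), and those near the 1000 strongest were 3 (1.8%) and 673 (3.37%). Within 500 bp they were 60 (35.9%) and 6512 (32.6%) for pooled regions, and 3 (1.8%) and 470 (2.35%) for the 1000 strongest. At 2000 bp the collagen share near the 1000 strongest was thus the higher, and at 1000 bp and 500 bp the lower. The median best rank, with genes without a region placed past the end of the list, was 13738 for collagen genes and 16258 for all genes.

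**Figure D1:**
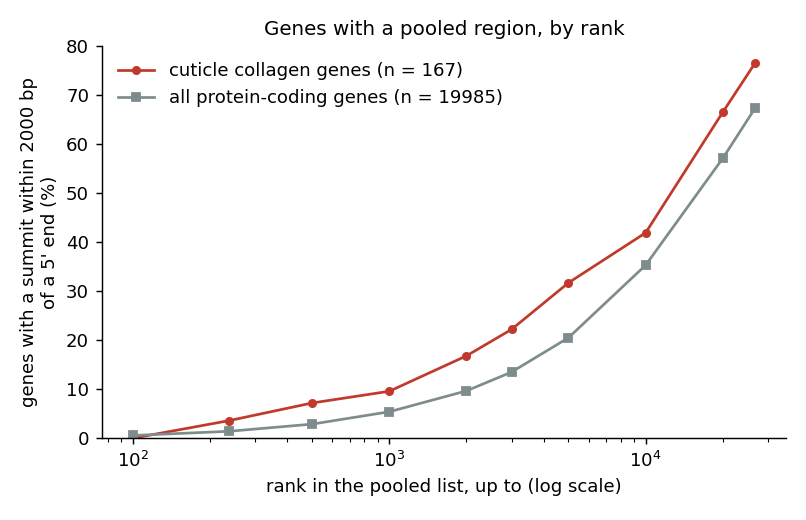
Share of genes (%) with a pooled summit within 2000 bp of a 5′ end, up to each rank in the pooled list (log axis), for 167 cuticle collagen genes (red circles) and all 19985 protein-coding genes (grey squares). The collagen line starts at 0 among the 100 strongest regions, is at 9.58% against 5.4% at rank 1000, and ends at 76.6% against 67.4%.

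These counts are of genes and not of independent regions. The 128 collagen genes had 114 distinct best regions, against 10094 for 13477 genes of all. The 16 near the 1000 strongest had 11, against 680 for 1080 genes. Of these 16, 8 (50%) had the nearest 5′ end to their region, against 659 of 1080 (61.0%). When each region was given only to the gene with the nearest 5′ end, 10 collagen genes (5.99%) were near the 1000 strongest, against 693 of all genes (3.47%). The same rule left 2 collagen genes (1.2%) with an IDR peak, against 172 of all genes (0.861%).

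Few of the strong regions lay in the promoters of the collagen genes they were counted for. Of the 16 collagen genes, 12 (75%) had the summit more than 1000 bp downstream of the 5′ end, against 208 of 1080 genes (19.3%). In the gene's own promoter window 1 of 16 collagen genes (6.25%) had it, against 540 of 1080 (50%). Past the gene's 3′ end were 8 of 16 summits (50%), against 165 of 1080 (15.3%). Cuticle collagen genes are short, with a median length of 1221 bp against 2026 bp for all genes, and 142 of 167 (85%) were shorter than 2000 bp, against 49.4% of all. For a short gene the 2000 bp around a 5′ end reach past the 3′ end, so gene length moves with this result.

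**Figure D2:**
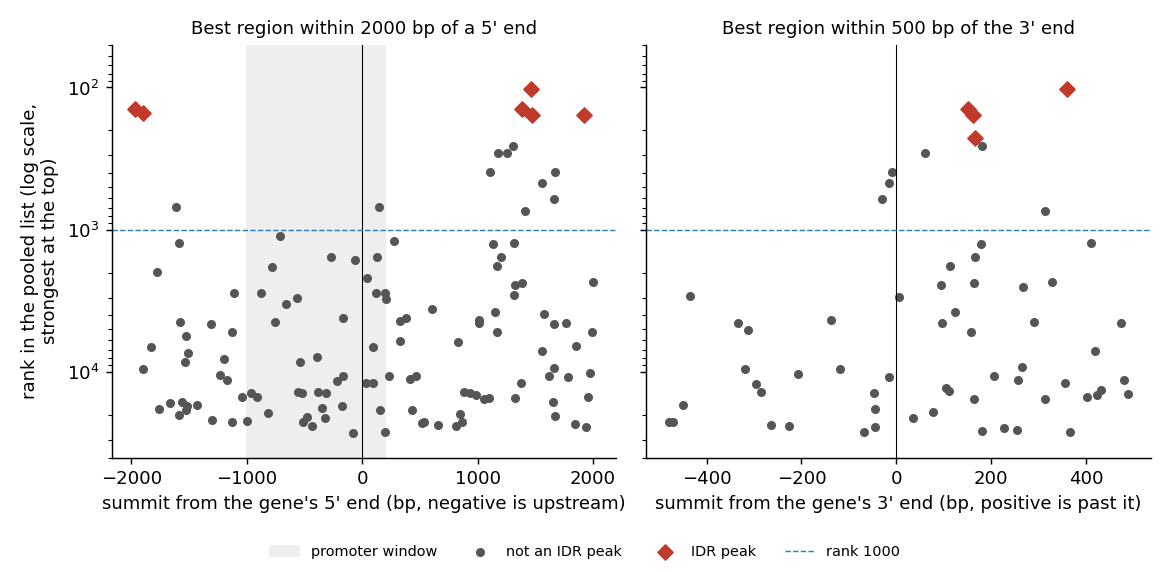
Rank in the pooled list (log axis, strongest at the top) against the summit's distance in bp from the 5′ end (left, best region within 2000 bp) and from the 3′ end (right, best region within 500 bp), 1 point per collagen gene. Red diamonds are IDR peaks, the grey band is the promoter window, and the dashed line is rank 1000. Above that line 1 point lies in the promoter band, while on the right 10 points lie between -30 and 359 bp.

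Distances were therefore also measured from the 3′ end, and among short genes alone, a comparison chosen after these positions were seen. Within 500 bp of the 3′ end, 10 collagen genes (5.99%) had 1 of the 1000 strongest pooled regions, against 359 of all genes (1.8%). Among genes shorter than 2000 bp the counts were 10 of 142 collagen genes (7.04%) and 167 of 9868 genes (1.69%). For IDR peaks they were 4 collagen genes (2.4%) and 78 genes (0.39%), or 4 of 142 (2.82%) and 44 of 9868 (0.446%) among the short genes. The 10 genes were col-42, col-117, col-147, col-3, col-176, col-160, col-96, col-131, col-151 and dpy-13. Their offsets ran between -30 and 359 bp with a median of 156 bp, and 7 of the 10 summits were past the end.

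The same count was made in each replicate. Within 500 bp of the 3′ end, the 1000 strongest regions of replicate 1 gave 10 collagen genes (5.99%), against 368 of all genes (1.84%). Those of replicate 2 gave 7 collagen genes (4.19%), against 317 of all genes (1.59%). Among genes shorter than 2000 bp these were 9 (6.34%), against 1.76% of all, in replicate 1 and 7 (4.93%), against 1.49% of all, in replicate 2. The membership differed in part. Of the 10 genes above, 9 were near the 1000 strongest regions of replicate 1 at this end, 5 near those of replicate 2, and 4 near those of both.

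**Figure D3:**
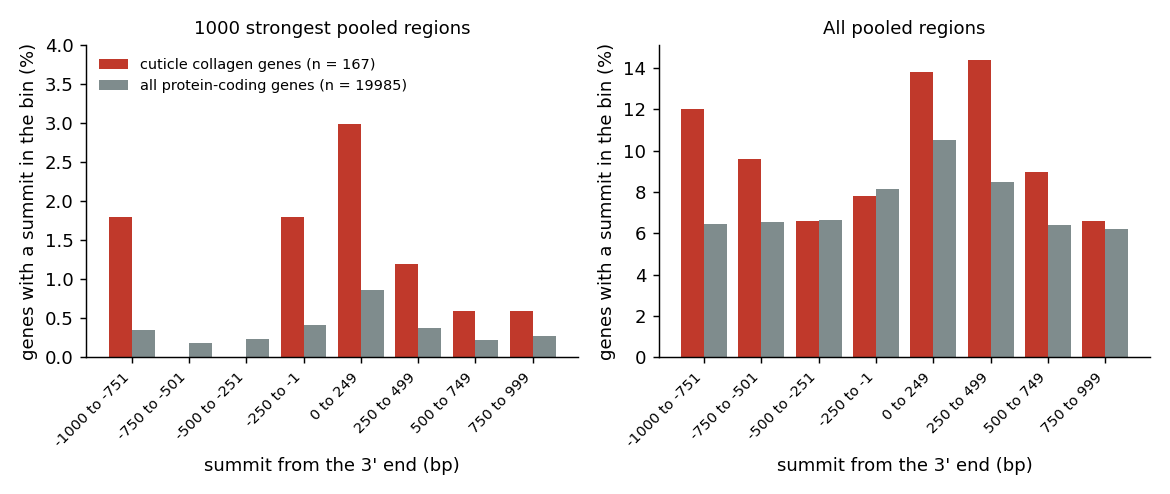
Share of genes (%) with a pooled summit in each 250 bp bin around the outermost 3′ end (bp, positive is past the end), for the 1000 strongest pooled regions (left) and all pooled regions (right), in 167 collagen genes (red bars) and 19985 genes (grey bars). In the bin that starts at the 3′ end, the strong regions are at 2.99% of collagen genes against 0.866% of all, and all regions at 13.8% against 10.5%.

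The whole pooled list, which includes the strong regions, was counted in the same way, and the weaker regions were not counted alone. In it 63 collagen genes (37.7%) had a summit within 500 bp of the 3′ end, against 6025 of all genes (30.1%). Among genes shorter than 2000 bp 55 (38.7%) did, against 2669 (27%). In the gene's own promoter window 71 collagen genes (42.5%) had a pooled summit, against 7282 of all genes (36.4%). Counting every region and not only the best, the promoter counts for the 1000 strongest were 3 collagen genes (1.8%) and 575 genes (2.88%). The 3 were col-80, col-159 and col-176. The stretch from 1001 to 2000 bp downstream of a 5′ end held a pooled summit in 67 collagen genes (40.1%), against 5001 of all genes (25%). It held 1 of the 1000 strongest in 13 collagen genes (7.78%), against 238 of all genes (1.19%). As far upstream the strong counts were 5 collagen genes (2.99%) and 267 genes (1.34%).

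Neighbouring genes were looked up for the 10 regions at collagen 3′ ends. The summit was in the promoter window of some protein-coding gene for 1 of the 10 (10%), that past col-42. Among all 304 of the 1000 strongest regions within 500 bp of a 3′ end the count was 133 (43.8%). Of the 10, 6 (60%) lay inside a protein-coding gene, against 150 of 304 (49.3%). Another gene's 3′ end was also within 500 bp for 3 of the 10 (30.0%), against 74 of 304 (24.3%), namely T28C6.5 at col-117, T06E4.5 at col-147 and AC3.5 at col-151.

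The letters AGGTCA were in 5 of the 10 windows of 201 bp around these summits (50%), those past col-42, col-3, col-176, col-160 and dpy-13. This was looked at after the windows were seen. They were in 25 of the 304 strong regions at any 3′ end (8.22%) and in 59 of all 1000 strongest regions (5.9%). Over all pooled regions at collagen 3′ ends they were in 8 of 71 (11.3%), against 270 of 5575 at any 3′ end (4.84%). The 71 include the 10 regions above, and the 8 include their 5 matches, so this is not a separate observation. AAGTCA was in 2 of the 10 windows, past col-42 and col-147, against 30 of 304 (9.87%). A match is a description of these letters and not a binding site, and 10 regions are few.

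Among the 11 genes known from mutant shapes, 0 had an IDR peak, against 1.42% of all genes, and 2, bli-1 and dpy-13, were near the 1000 strongest pooled regions, against 5.4%. With 11 genes these counts show little. dpy-13, whose mutants are short, had its region at pooled rank 736 (signal 20.9), 314 bp past the 3′ end. It ranked 5490 in replicate 1 (signal 9.51) and 578 in replicate 2 (11.0), so replicate 2 carried most of it. The bli-1 region (pooled rank 689, signal 21.3) lay 1616 bp upstream, and was in the promoter window of col-80, 143 bp downstream of that gene's 5′ end. Its ranks were 855 in replicate 1 and 5627 in replicate 2.

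bli-1 and bli-2 encode collagens of the struts, the columns that span the fluid layer of the adult cuticle. bli-2 was the listed gene with its strongest region closest to its start, with the summit 61 bp upstream of the 5′ end, in the window printed above, which also holds TATAAA. That region ranked 1643 in the pooled list (signal 16.7), 11907 in replicate 1 (7.43) and 666 in replicate 2 (10.7). It was thus weak in replicate 1 and strong in replicate 2.

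dpy-2, dpy-7, dpy-8 and dpy-10 encode collagens of the annular furrows, which order the circumferential grooves of the cuticle. The dpy-7 region lay 780 bp upstream and ranked 1827 in the pooled list (signal 16.2). It ranked 389 in replicate 1 (19.1), and the best region of dpy-7 in replicate 2 ranked 9508 (5.27) and lay elsewhere, 1202 bp downstream. dpy-2 and dpy-10 are neighbours that shared a region at pooled rank 8534 (signal 10.9), 535 bp upstream of dpy-2 and 1530 bp upstream of dpy-10. That region ranked 2401 in replicate 1, while replicate 2 ranked 2246 at dpy-2, at another place 1836 bp downstream, and had none at dpy-10. The 2 furrow genes with the stronger pooled regions were dpy-7 and dpy-8. The dpy-8 region (rank 2349, signal 15.3) was exactly 2000 bp downstream and nearest to the 5′ end of C31H2.14. At that place replicate 2 had a region at rank 1327 with its summit 2 bp away, just beyond the 2000 bp limit, and the overlapping region of replicate 1 ranked 27678. Within the limit, the best ranks of dpy-8 were 11094 in replicate 1 and 7078 in replicate 2, both at other places. None of these 4 genes had a region in the strongest 1000 of both replicates.

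The remaining listed genes shape the body or give it a roll, and rol-6 and sqt-1 are known to interact genetically. rol-6 had its best pooled region at rank 3611 (signal 13.8), 603 bp downstream in a coding exon. The overlapping region of replicate 1 ranked 925, and replicate 2 had none there, its best rank of 14361 lying elsewhere. sqt-1 was at rank 4142 (13.4), 383 bp downstream in a coding exon. The overlapping region of replicate 1 ranked 1110, and replicate 2 had none there, its best rank of 1963 lying 1352 bp downstream. sqt-3 was at rank 3891 (13.6), 1573 bp downstream, where the overlapping regions ranked 3842 in replicate 1 and 24747 in replicate 2. dpy-17, whose product helps SQT-3 leave the cell, had no pooled region within 2000 bp, and ranked 13049 in replicate 1 and 25689 in replicate 2. The pooled regions of rol-6 and sqt-1 were thus in replicate 1 alone.

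Across the set the replicates shared a part of the ranking. Both had a region within 2000 bp for 102 collagen genes (61.1%), against 10959 of all genes (54.8%). In replicate 1 alone the count was 133 collagen genes (79.6%), against 14116 of all (70.6%), and in replicate 2 it was 126 (75.4%), against 14634 (73.2%). The 1000 strongest regions of replicate 1 were near 19 collagen genes (11.4%), against 1030 of all (5.15%). Those of replicate 2 were near 15 (8.98%), against 989 (4.95%). Both at once held for 9 collagen genes (5.39%), against 378 of all genes (1.89%). They were col-3, col-117, col-94, col-146, col-147, col-159, col-160, col-176 and col-63. These are not 9 separate places, since col-3 and col-117, col-146 and col-147, and col-159 and col-160 shared regions. Nor did the replicates always mark the same place. From the 5′ end, the best summit of col-176 was at 1318 bp in replicate 1 and 112 bp in replicate 2. That of col-117 was at -1987 bp in replicate 1 and 1424 bp in replicate 2. For the 3000 strongest of each replicate the counts were 15 collagen genes (8.98%) and 864 genes (4.32%).

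Over the 102 genes, Spearman's rho between the best ranks of the replicates was 0.477, and Pearson's r of log10 ranks was 0.573. Counting each pair of regions once left 94 points, with a rho of 0.436 and an r of 0.554. Over all 10959 genes, with every gene counted, these were 0.221 and 0.42. With each pair of regions once, over 9334 points, they were 0.194 and 0.358. The points share libraries and neighbouring genes share regions, so these are descriptions. The best regions were often not the same place: the median gap between the best summits of the replicates was 839.5 bp. Summits within 100 bp of each other were found for 9 collagen genes (5.39%), against 1198 of all genes (5.99%). With best summits this close, 7 collagen points gave a rho of 0.571 and an r of 0.463. Over all genes 887 such points gave 0.495 and 0.702, so r was there the lower in collagen genes. The collagen points are few.

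**Figure D4:**
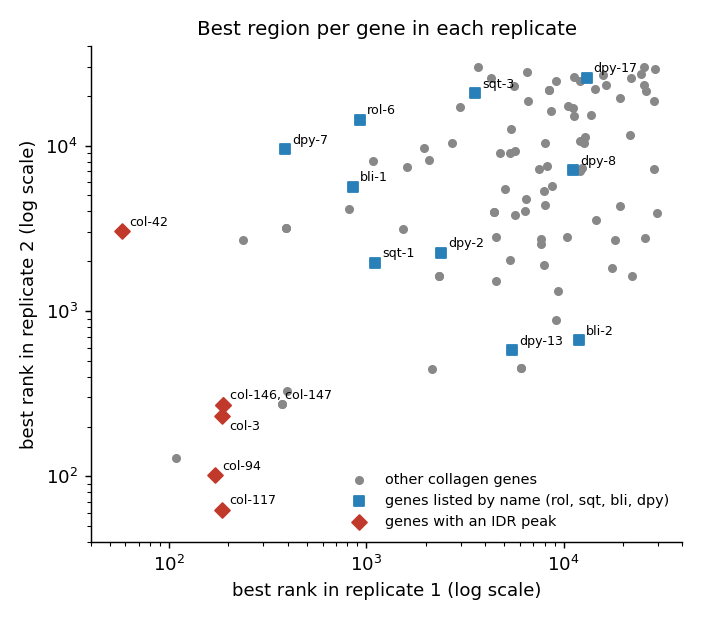
Best rank of each collagen gene in replicate 1 (x) and replicate 2 (y), both log axes, for the 102 genes with a region in both. Red diamonds are genes with an IDR peak, blue squares are genes listed by name, and grey circles are the others. The IDR genes are at ranks up to 188 in replicate 1 and up to 272 in replicate 2, except col-42 at 3025 in replicate 2.

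Within 2000 bp of a 5′ end, 128 collagen genes (76.6%) had a pooled region, against 67.4% of all genes, and 39 had none. Within this limit 6 had none in any list: col-12, col-14, col-109, col-114, col-135 and col-163. No such count over all genes is given here, so the 6 are named only. At its 3′ end col-109 had a pooled region, at rank 10620 and 205 bp past the end. col-135 had a replicate 1 region there, at rank 28169. Near-identical pairs were among those without a pooled region. col-126 and col-127, with 100% identical proteins, shared a replicate 1 region at rank 16280 and had none in replicate 2. col-12 and col-13, at 99.4% identity, had none except a replicate 1 region of col-13 at rank 22854. Where coding sequences are this alike, the part of reads that match both copies was not tested. In all, 43 pairs of collagen proteins among 33 genes were at least 90% identical.

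By chromosome, V had 6 of 32 collagen genes (18.8%) near the 1000 strongest pooled regions, against 3.36% of all its genes. The others had 3 of 13 on III (23.1% against 7.54%), 4 of 42 on IV (9.52% against 5.85%), 2 of 30 on II (6.67% against 4.55%) and 1 of 29 on X (3.45% against 5.38%). On chromosome I there were 0 of 21, against 7.12% of all its genes, and the best was col-63 at rank 1105, 711 bp upstream of its 5′ end in its promoter window. col-63 ranked 398 in replicate 1 and 328 in replicate 2, so it was strong in both. On chromosome I 61.9% of collagen genes had any pooled region, against 70.5% of all its genes. On II the values were 90% and 67.1%. These counts are small, and neighbouring genes share regions.

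**Figure D5:**
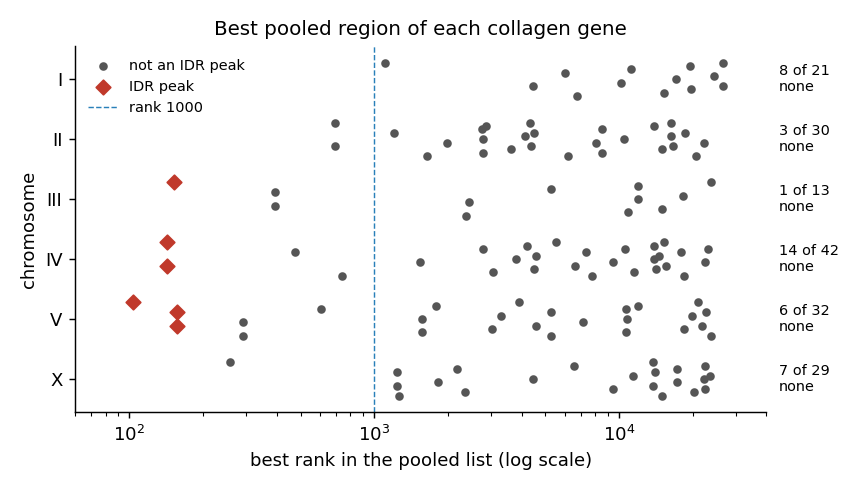
Best rank in the pooled list (log axis) of each collagen gene, by chromosome, with the vertical spread only for legibility. Red diamonds are IDR peaks, the dashed line is rank 1000, and the text at the right gives the genes with no region within 2000 bp. Chromosomes III, IV and V hold the 6 genes with an IDR peak, and the strongest gene on I is at 1105.

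The promoters and proteins of the set were also described, without regard to the regions. In the 250 bp before to 50 bp after the outermost 5′ end, TATAAA was in 111 of 167 collagen genes (66.5%), against 38.0% of 19984 genes. AGGTCA was in 23 (13.8%), against 8.27%, and AAGTCA in 24 (14.4%), against 13.3%. GAGAGA was in 46 (27.5%), against 21.8%, and TGATAA, the GATA factor motif, in 50 (29.9%), against 30.2%. CTGCGTC was in 11 (6.59%), against 4.33%, and GCGCGC in 6 (3.59%), against 3.58%. All were searched on both strands, and no match says only that these letters are not in this window. The encoded proteins had a median of 304 residues, with a range of 154 to 948. The longest unbroken Gly-X-Y run had a median of 21 triplets, with a range of 1 to 155. The only protein without a run of at least 10 triplets was that of col-17 as annotated.

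Other collagens and genes of cuticle formation were looked up by role. Beside them stand the 67.4% of all genes with a pooled region, the 5.4% near the 1000 strongest and the 1.42% with an IDR peak. The lists are short, so these counts are given as values only. Of 9 further collagens not named col-, a list that includes mec-5, 7 had a pooled region. Near an IDR peak or the 1000 strongest regions there were 0, and dpy-5 was best at rank 3979. Of 13 enzymes that modify or cross-link collagen, 9 had a pooled region and 2 were near the 1000 strongest. These were dpy-11, a thioredoxin-like protein, at rank 257 (signal 29.8), and phy-2, a subunit of prolyl 4-hydroxylase, at rank 936 (19.4). The dpy-11 summit was 1427 bp downstream, in a promoter window and nearest to the 5′ end of ubh-1. That of phy-2 was 1701 bp downstream, in a coding exon. The best ranks of dpy-11 were 162 in replicate 1, at 1422 bp, and 1218 in replicate 2, at -143 bp. Those of phy-2 were 849 in replicate 1, at -338 bp, and 135 in replicate 2, at 1566 bp. Of 12 cuticlins and other cuticle proteins, 10 had a pooled region and 0 were near the 1000 strongest, with noah-2 best at rank 1296.

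Of 19 regulators of molting and cuticle genes, 15 had a pooled region and 3 were near the 1000 strongest, against 5.4% of all genes. They were lin-42, the worm relative of the clock gene period, at rank 268 (signal 29.2), nhr-23 at rank 336 (26.6) and sma-9, a Schnurri relative in the BMP-like pathway of body size, at rank 756 (20.8). Their summits lay 800 bp downstream in lin-42, 595 bp downstream in nhr-23 and 1895 bp upstream of sma-9. The best ranks of these 3 were 81, 351 and 676 in replicate 1, at 769, 574 and -839 bp. In replicate 2 they were 1064, 2111 and 2180, at 489, 1130 and -1586 bp. Of the 19, 0 were near the 1000 strongest regions of each replicate, against 1.89% of all genes. None of these lists had an IDR peak, against 1.42% of all genes, and in lists this short that shows little. Of 3 basement membrane collagens, which are not part of the cuticle, 1 had a pooled region, cle-1 at rank 11251. Of the strut and furrow collagens outside the 167, bli-6 was at rank 10690, and dpy-3 and dpy-9 had no pooled region. Among the adult collagens col-7, col-19, col-62 and rol-6, the best was rol-6, and col-19, a marker of the adult cuticle, was at rank 14030.

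The counts depend on the 2000 bp limit, since at 1000 bp the genes with an IDR peak were 0 in place of 6, and those near the 1000 strongest regions 3 in place of 16. The gene just inside it by its nearest pooled summit was col-8, at 1952 bp and rank 14946, and the gene just outside was col-180, at 2125 bp and rank 25160. No expression was measured, so none of these regions is tied here to the activity of a collagen gene.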

How the data were processed

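NHR-237 ChIP-seq of whole L4 worms gave 2 samples, 1 group. The authors deposited narrowPeak lists on ce11 for each replicate, for both pooled, and the IDR peaks. Each region has the authors' signal, whose scale is not stated and which was used only for ranks within a list, and a deposited −log10 q value. The p column holds no values. Per the text file deposited with the samples, IDR peaks derive from the pooled and both replicate lists, and each input list from alignments plus 1 further file that the control-normalized tracks also use. The sources used here name no aligner, caller or IDR threshold. ce10 lists were not used.

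For each gene, the best rank of a summit within 2000 bp of any protein-coding 5′ end was taken, and ties share the lowest rank. Summits were placed in promoters (1000 bp upstream to 200 bp downstream) and, failing that, in UTRs, coding exons, introns or between genes. Trans-splicing can leave annotated worm 5′ ends short of the true start. No test was made: the collagen genes are described beside all protein-coding genes. The matching of regions to genes was tested on simulated data. Promoter windows and proteins came from the WBcel235 genome and Ensembl release 115 annotation. Tools were Python 3.11.15, pandas 2.3.3, NumPy 2.4.6, SciPy 1.17.1 and Biopython 1.88. The members, lists and distances were chosen with earlier results of these data known. Named genes were those with an IDR peak, the 11 listed, the 15 best pooled ranks, the best per chromosome, those in the 3000 strongest regions of each replicate, those at the distance limit, the 6 most alike pairs, and up to 3 genes of each other list. Others were named after their values were seen. Alternatives were other distances, only the nearest or outermost 5′ end, a 500 bp promoter, other meanings of replicate overlap, stronger IDR peaks, and leaving out each replicate. The place and sequence of 1 region are not reported here.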

Additional observations from a re-analysis of the deposited data

How the results depend on the processing

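The distance allowed to a 5′ end moved these counts. Within 500 bp, 60 collagen genes had a pooled region, 0 an IDR peak, 3 were near the 1000 strongest regions and 26 (15.6%) had a region in both replicates, against 16% of all genes. Within 1000 bp these were 0 with an IDR peak, 3 near the 1000 strongest and 49 (29.3%) in both replicates, against 30.9% of all genes. Within 2000 bp they were 6, 16 and 102 (61.1%, against 54.8%), so the higher share in both replicates was not seen at the shorter distances. Within 5000 bp 159 (95.2%) had a region in both, against 87.3%. Giving each region only to the nearest 5′ end left 2 with an IDR peak and 10 near the 1000 strongest. An IDR peak at or above the median signal was near 1 gene (0.599%, against 0.686% of all genes). Agreement of replicates fell to 9 genes (5.39%, against 1.89% of all) for the 1000 strongest regions of each. These were not always at the same place. It fell to 52 (31.1%, against 23.3% of all) where the best pooled region overlapped both replicates by 1 bp. At 50% overlap it was 41 (24.6%, against 17.4%). For summits within 100 bp of the pooled summit it was 29 (17.4%, against 12.4%). Best summits in a promoter numbered 37 (22.2%, against 25.3%), and 24 (14.4%, against 16.9%) with 500 bp upstream. Without replicate 1, 118 genes (70.7%) had a region, against 69.4% of all genes, so the shares were close. Without replicate 2 it was 124 (74.3%), against 66.7%. In the same order, 4 (2.4%, against 1.38%) and 7 (4.19%, against 1.38%) were near the 237 strongest. Near the 1000 strongest were 15 (8.98%, against 4.95%) and 19 (11.4%, against 5.15%). Such a region was at the 3′ end of 7 (4.19%, against 1.59%) and 10 (5.99%, against 1.84%). The alternatives for 3′ ends were chosen after seeing the data. They gave 8 genes within 250 bp (4.79%, against 1.25%) and 14 within 1000 bp (8.38%, against 2.61%). The other counts of collagen genes near regions stayed within 1.5 times. TGATAA was in 95 collagen genes (56.9%) in the 500 bp before the 5′ end, against 43.7% of all genes. Of the 33 named genes with a pooled region, 27 kept the same best rank within 5000 bp, 10 within 1000 bp and 5 within 500 bp. No paired analysis was possible because there is 1 group. Depth is unknown and limits what an absent region can show.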
